A study of Mus musculus with 26 samples.

Results

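The transcripts described here encode the subunits of the mitochondrial respiratory chain and of ATP synthase, measured by RNA sequencing of mouse liver. Members were the protein-coding genes of the estimated count table whose symbols began with mt-Nd, mt-Co, mt-Atp or mt-Cytb, with Nduf followed by a, b, c, s or v and a digit, with Uqcr, Cyc1, Cox4 to Cox8 or Atp5, or were Sdha to Sdhd. Symbols containing -ps were left out. The rule found 99 gene IDs of 55642 in the table. Of these, 13 lie on the mitochondrial genome and 86 on nuclear chromosomes. A filter on low counts kept 93 members for testing, all 13 mitochondrial and 80 nuclear ones. The 6 left untested were Cox4i2, Cox6a2, Cox7b2, Cox8b, Cox8c and a second ID named Atp5o without a count. Cox7b2 and Cox8c had a mean of 0 CPM (depth-normalised counts, scaled by the TMM method) in every group, and the others apart from that ID averaged under 0.2 CPM in every group. A few members matched by their symbol are not lasting parts of a complex: Cox7a2l is a supercomplex factor and Atp5s an ATP synthase-associated factor. Ndufa4 and Ndufa4l2 were counted with complex I by their Nduf symbols, although they are listed below with the isoforms of complex IV. Some subunits carried other symbols in the annotation used (such as Ndufab1) and were not members.

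Complex I (NADH dehydrogenase) and complex II (succinate dehydrogenase) pass electrons to coenzyme Q. Complex III (cytochrome bc1) hands them to cytochrome c and complex IV (cytochrome c oxidase) to oxygen. Complexes I, III and IV pump protons, and ATP synthase, complex V, uses the proton gradient to make ATP. All complexes but II are mosaics: a few core membrane subunits are made from the mitochondrial genome, which is transcribed as long precursors from both strands, and the rest are encoded in the nucleus and imported. Hepatocytes are rich in mitochondria, and their respiratory chain takes up electrons from fatty acid oxidation and the TCA cycle.

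The study compared 26 liver libraries in 4 groups. Wildtype mice received control chow (5 libraries) or CDAHFD, a high-fat diet with defined amino acids and no choline that is used to model steatotic liver disease (6 libraries). Mtarc1 heterozygous (7 libraries) and homozygous (8 libraries) knockout mice received CDAHFD only, so genotype was not compared on chow. Mtarc1 encodes a molybdenum enzyme of the outer mitochondrial membrane. CDAHFD was given for 2 weeks. The sources used here give neither strain nor age, nor which part of Mtarc1 was deleted. The labels number the samples without saying that each is a separate animal, so a p-value here speaks only of the spread among these samples, which may be technical.

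Mtarc1 averaged 305 CPM ± 40.2 (SD, n = 5) on chow and, for CDAHFD, 235 CPM ± 40.7 (n = 6) with both copies, 161 CPM ± 33.7 (n = 7) in heterozygotes and 48.7 CPM ± 10.4 (n = 8) in homozygotes. Homozygous against wildtype CDAHFD libraries it fell by 2.27 on the log2 scale (SE 0.15, edgeR adjusted p = 8.0e-11). The heterozygous difference was −0.55 (adjusted p = 0.569). Libraries held 19.7 to 29.9 M counts. All 10 hepatocyte markers listed were present in every group. The library names fall into a series of 9 libraries (1 chow, 3 wildtype, 3 heterozygous and 2 homozygous CDAHFD) and a series of 17 (4, 3, 4 and 6), which the labels do not call batches. Values within a series are given beside the main results.

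Mitochondrial members were far more abundant than nuclear ones. Per kilobase of exon, and averaged over all libraries, mt-Co1 reached 18881 CPM, mt-Cytb 12409 CPM and mt-Co2 11663 CPM. The lowest mitochondrial member, mt-Nd3, had 840 CPM per kilobase. Cox6a1, at 697 CPM per kilobase, was the highest nuclear member, followed by Cox4i1 at 277 CPM per kilobase. The lowest mitochondrial level on this scale therefore stood above the highest nuclear one. Exon length merged all annotated transcripts of a gene, and the order was not checked with other lengths. Of the reads shared between mt-Nd3 and a near-identical nuclear copy, 69.3% were assigned to the copy.

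The share of counts on the 13 mitochondrial members was lower on average in the CDAHFD groups, while the share on the 86 nuclear members went in opposite directions in the 2 series of library names. The 5 chow libraries, in order of sample number, had mitochondrial shares of 11.6%, 11.2%, 7.96%, 14.1% and 14.7%. The lowest, median and highest shares were 7.17%, 9.32% and 12.02% in wildtype CDAHFD libraries. In heterozygous libraries they were 5.78%, 7.30% and 10.8%. Chow sample 3 lay inside the range of every CDAHFD group, so the groups overlapped. Homozygous libraries ran from 6.27% over 8.15% to 10.5%. The mean share was 11.9% ± 2.70 (SD, n = 5) on chow, against 9.39% ± 2.08 (n = 6) for wildtype, 7.59% ± 1.75 (n = 7) for heterozygous and 8.59% ± 1.49 (n = 8) for homozygous mice on CDAHFD. The nuclear share was 1.13%, 1.04%, 1.00%, 1.02% and 1.01% in the chow libraries. It averaged 1.04% ± 0.0498 (SD, n = 5) there, against 1.13% ± 0.0793 (n = 6) for wildtype, 1.05% ± 0.0231 (n = 7) for heterozygous and 1.08% ± 0.0548 (n = 8) for homozygous mice on CDAHFD. Within the 17-library series all 3 wildtype CDAHFD libraries (1.16% to 1.25%) lay above all 4 chow libraries (1.00% to 1.04%). Within the 9-library series the 1 chow library (1.12%) lay above all 3 wildtype CDAHFD libraries (lowest 1.03%, median 1.07%). The mean mitochondrial share of wildtype CDAHFD libraries was below chow in both series. It was 8.50% ± 1.95 (SD, n = 3) against 12.002% ± 3.11 (n = 4) in the larger series. In the smaller one it was 10.3% ± 2.13 (n = 3) against 11.6% (1 library). That chow library lay inside the CDAHFD range, below wildtype CDAHFD sample 1 (12.02%). In bulk tissue, fewer cells of a type and less RNA per cell cannot be told apart.

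**Figure D1:**
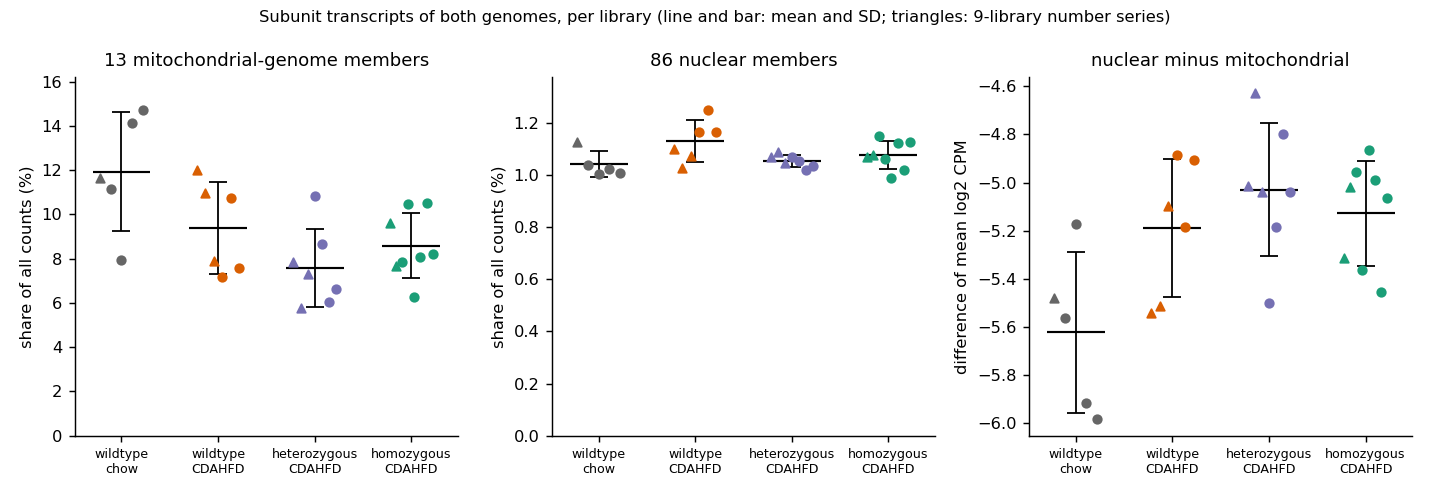
Share of all counts on the 13 mitochondrial-genome members (left, %) and the 86 nuclear members (middle, %), and the mean log2 CPM of nuclear minus mitochondrial members (right), one point per library, with the group mean and SD. Chow means were 11.9% and 1.04%, and the difference was lowest in chow at −5.62, with chow samples 1 and 3 inside the range of the CDAHFD libraries.

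Nuclear and mitochondrial members were set against each other in each library as the mean log2 CPM of the 80 tested nuclear members minus that of the 13 mitochondrial ones. In chow libraries the value was −5.48, −5.56, −5.17, −5.91 and −5.98. The lowest, median and highest values were −5.54, −5.14 and −4.89 in wildtype CDAHFD. In heterozygous libraries they were −5.50, −5.04 and −4.63. Samples 2, 4 and 5 of the chow group stood below every CDAHFD library, and samples 1 and 3 stood among them. In homozygous libraries the values were −5.45, −5.04 and −4.86. The group mean was −5.62 ± 0.33 (SD, n = 5) on chow, against −5.19 ± 0.29 (n = 6) for wildtype, −5.03 ± 0.28 (n = 7) for heterozygous and −5.13 ± 0.22 (n = 8) for homozygous mice on CDAHFD. Against chow, the balance was therefore 0.43 higher on the log2 scale in wildtype, 0.59 in heterozygous and 0.49 in homozygous CDAHFD libraries. These 3 differences share the chow libraries and are not independent.

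On the TMM scale both sets had lower means on CDAHFD, the mitochondrial one by more. The mean log2 CPM of mitochondrial members was 12.26 on chow, and on CDAHFD it was 11.68 for wildtype, 11.40 for heterozygous and 11.57 for homozygous mice. That of nuclear members was 6.64, 6.50, 6.37 and 6.44 in the same order. Within the 17-library series the nuclear mean was 6.61 on chow and 6.60 in wildtype CDAHFD libraries. Within the 9-library series it was 6.73 (1 chow library) and 6.39, so the lower wildtype mean came mostly from that series. Between the CDAHFD groups the balance differed by 0.16 for heterozygous and 0.06 for homozygous against wildtype libraries, both smaller than the SD within a group. The wildtype difference from chow was 0.67 within the 17-library series and 0.093 within the 9-library series, where chow is 1 library. The heterozygous difference from wildtype CDAHFD was 0.49 within the 9-library series and −0.14 within the 17-library series, and the homozygous one was 0.22 and −0.12, so the sign of both depended on the series. Against chow, the heterozygous difference was 0.58 and 0.53, and the homozygous one 0.31 and 0.54. By complex, the nuclear minus mitochondrial value of chow and wildtype CDAHFD libraries averaged −5.25 and −4.91 for complex I, −7.03 and −6.57 for complex III, −7.65 and −7.19 for complex IV, and −4.01 and −3.38 for complex V. It was higher on CDAHFD in all 4 complexes that hold subunits of both genomes.

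Mitochondrial-genome transcripts fell in the livers of CDAHFD-fed wildtype mice. In wildtype CDAHFD against wildtype chow libraries 9 of 13 passed the test (edgeR, adjusted p under 0.05), all lower, against 12.2% of all 17104 genes called lower. The median log2 fold change was −0.55, beside −0.01 over all genes tested. All 13 estimates were below 0, and all 13 had an unadjusted p under 0.05. In heterozygous CDAHFD against wildtype chow libraries, where 17.9% of all genes were called lower, all 13 fell (median −0.80). In homozygous libraries against the same chow libraries, with 10.8% called lower, 12 fell (median −0.68), and mt-Nd1 did not pass. Scaling by total counts instead of TMM kept the median below 0 in these 3 comparisons but left 1, 11 and 9 members called. It moved the median of all genes in the wildtype comparison to 0.22, and relative to that median the mitochondrial median was −0.54 under both scalings. Without chow sample 5 the wildtype comparison had 6 calls, and without chow sample 3 it had 13. Within the 17-library series the calls were 4 in wildtype (median −0.70), 9 in heterozygous (median −0.80) and 10 in homozygous livers (median −0.78) against chow.

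The 7 mitochondrial subunits of complex I form most of its proton-pumping membrane arm. In chow libraries mt-Nd4 had 11257, 13233, 8821, 16604 and 17008 CPM. The lowest, median and highest levels were 6516, 8244 and 11523 CPM in wildtype, 5078, 6650 and 9437 CPM in heterozygous and 5674, 7729 and 9913 CPM in homozygous CDAHFD libraries. The groups overlapped: 3 of 6 wildtype, 5 of 7 heterozygous and 6 of 8 homozygous libraries lay below every chow library. On CDAHFD mt-Nd4 fell by 0.65 on the log2 scale in wildtype livers (SE 0.19, adjusted p = 0.012). The other called members were mt-Nd6 at −0.67 (SE 0.22, adjusted p = 0.024), mt-Nd5 at −0.61 (SE 0.18, adjusted p = 0.014) and mt-Nd2 at −0.52 (adjusted p = 0.036). Of these, mt-Nd6 did not pass in 5 of 11 fits that left out 1 library (−0.53, adjusted p = 0.0933 without chow sample 4), and mt-Nd2 in 7 (−0.42, adjusted p = 0.127 without chow sample 5). Those that did not pass were mt-Nd3 at −0.53 (adjusted p = 0.074), mt-Nd4l at −0.50 (adjusted p = 0.066) and mt-Nd1 at −0.42 (adjusted p = 0.075). In chow libraries mt-Nd1 had 10203, 9133, 6018, 9503 and 11275 CPM. Its CDAHFD libraries ran from 5083 to 9036 CPM in wildtype, 4292 to 7842 CPM in heterozygous and 5149 to 8137 CPM in homozygous mice, with 2, 5 and 1 of them below every chow library. The gene mt-Nd6 is the one member on the other strand of the mitochondrial genome, and it overlaps the end of mt-Nd5. The sources used here do not say whether reads were counted by strand, so those in the overlap cannot be assigned.

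Complexes III and IV take 1 and 3 subunits from the mitochondrial genome. The cytochrome b gene, mt-Cytb, had 18127, 20330, 13850, 25593 and 27104 CPM in chow libraries. In wildtype CDAHFD libraries its lowest, median and highest levels were 10823, 13667 and 17856 CPM, and 3 of 6 lay below every chow library. It fell by 0.61 on the log2 scale (SE 0.18, adjusted p = 0.012), and without chow sample 5 the value was −0.50 (adjusted p = 0.051). The catalytic oxidase subunit mt-Co1, the most abundant member, had 40869, 41056, 28746, 47445 and 50597 CPM in chow libraries. It ran from 22156 to 37308 CPM in wildtype, 19191 to 30765 CPM in heterozygous and 20597 to 30526 CPM in homozygous CDAHFD libraries. There 3 of 6, 6 of 7 and 6 of 8 libraries lay below the lowest chow library. In wildtype livers mt-Co1 fell by 0.55 on the log2 scale (SE 0.16, adjusted p = 0.012) and mt-Co3 by 0.63 (SE 0.17, adjusted p = 0.007). The second catalytic subunit, mt-Co2, which carries the copper centre that receives electrons from cytochrome c, was at −0.48 (adjusted p = 0.061).

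Both mitochondrial subunits of ATP synthase fell. The proton channel subunit mt-Atp6 showed the largest decrease of the 13 in wildtype livers, 0.90 on the log2 scale (SE 0.23, adjusted p = 0.005), and in heterozygous livers against chow, 1.34. In chow libraries it had 8115, 4553, 5148, 9464 and 8126 CPM. CDAHFD libraries ran from 2899 to 4901 CPM in wildtype, 1904 to 3561 CPM in heterozygous and 2781 to 6228 CPM in homozygous mice. All 7 heterozygous, 4 of 6 wildtype and 5 of 8 homozygous libraries lay below every chow library. Its small partner mt-Atp8 had 550, 652, 461, 790 and 764 CPM in chow and 352 to 595 CPM in wildtype CDAHFD libraries. It fell there by 0.54 on the log2 scale (SE 0.15, adjusted p = 0.008). All 8 homozygous libraries, at 310 to 433 CPM, lay below every chow library. The genes lie on one transcript and share 43 bases at chrM:7927-7969 (GRCm38, + strand), shown because a read inside them belongs to both. Capitals mark the mt-Atp6 start codon.
mt-Atp8/mt-Atp6: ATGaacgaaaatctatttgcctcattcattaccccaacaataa

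Several mitochondrial members have near-identical nuclear copies that can take up their reads. Over all libraries, the copies held 33.7% of the mt-Atp6 reads (4.29% to 51.8% per library), 69.3% for mt-Nd3, 27.3% for mt-Co3, and 12.1% each for mt-Co2 and mt-Nd4l. With the counts of copies added back, the wildtype diet difference was −0.72 for mt-Atp6 (adjusted p = 0.00837) and −0.60 for mt-Co3 (adjusted p = 0.00757). It was −0.47 for mt-Nd3 (adjusted p = 0.0813). In that fit mt-Co2, at −0.54 (adjusted p = 0.0273), and mt-Nd4l, at −0.50 (adjusted p = 0.0392), passed as well, which made 11 of 13. The ribosomal RNAs of the mitochondrial genome, which are not members, also fell: mt-Rnr1 went from 5676 CPM ± 1753 (SD, n = 5) in chow to 2567 CPM ± 897 (n = 6) in wildtype CDAHFD libraries. Its log2 difference was −1.14 (SE 0.24, adjusted p = 6.7e-04).

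**Figure D2:**
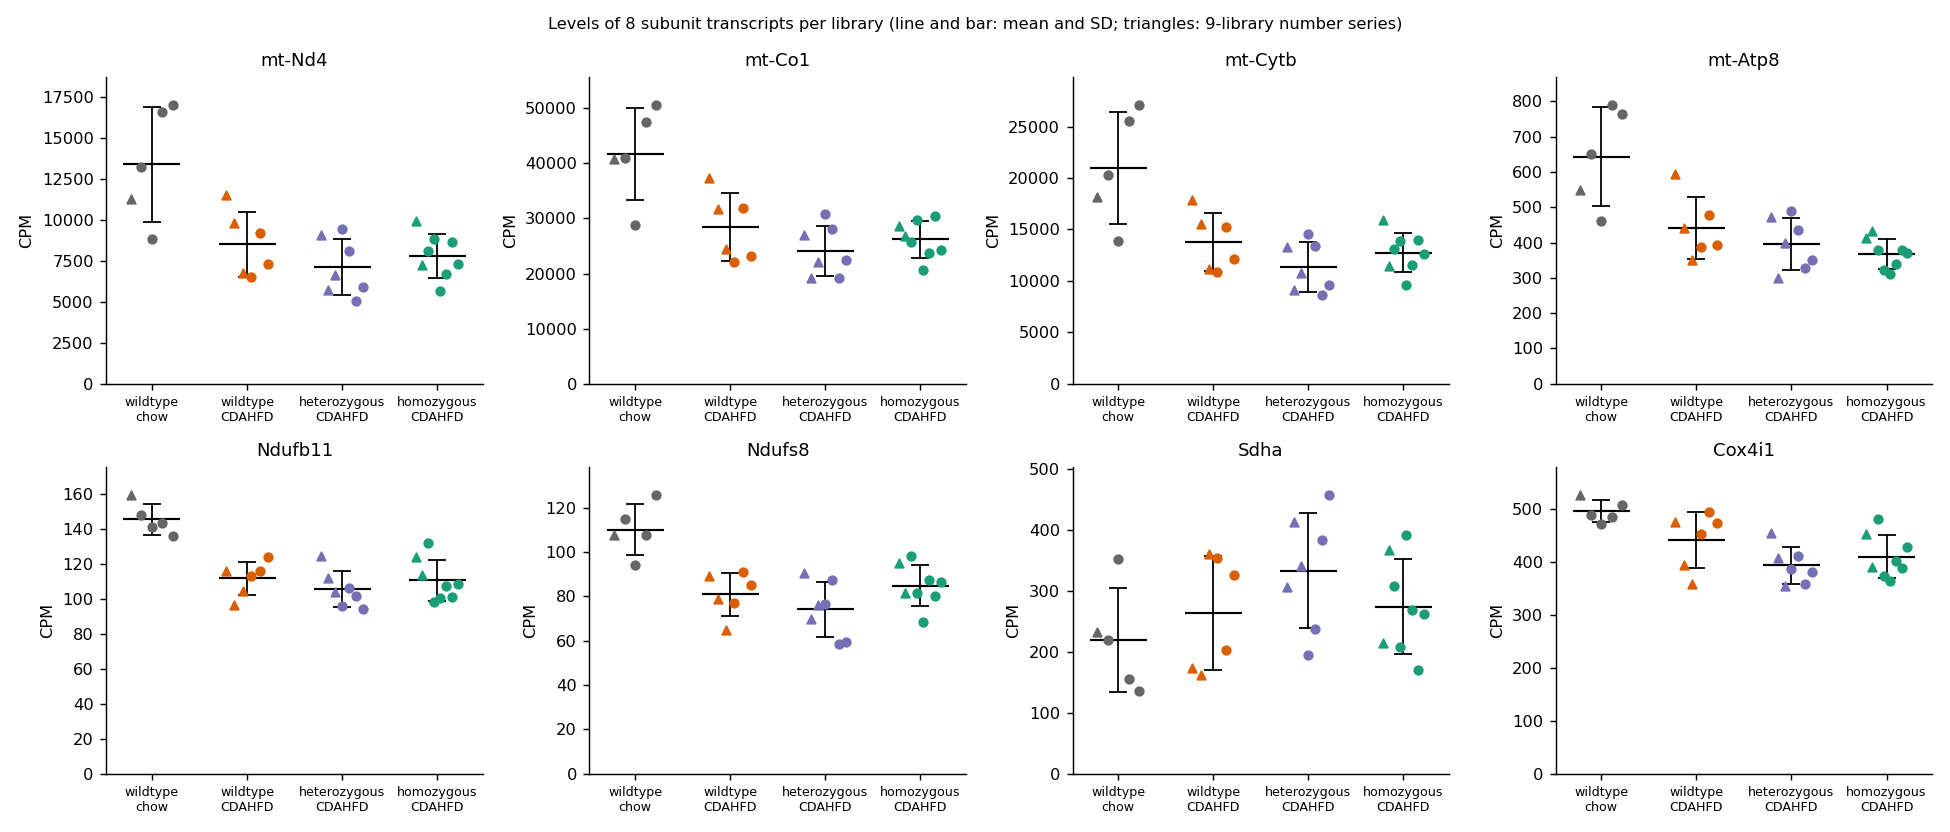
CPM of 4 mitochondrial (top) and 4 nuclear (bottom) members, one point per library, with the group mean and SD. The mitochondrial transcripts spread widely within chow (mt-Nd4 from 8821 to 17008 CPM), while all CDAHFD libraries of Ndufb11 lie below all chow libraries and Sdha overlaps throughout.

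Nuclear members moved less and less uniformly. In wildtype CDAHFD against chow livers 15 of 80 fell and 1 rose (18.8% lower, beside 12.2% of all genes lower and 14.8% higher). Their median log2 fold change was −0.17, and 64 of 80 estimates were below 0. In heterozygous CDAHFD against wildtype chow libraries 44 fell and 1 rose (median −0.29, beside 17.9% and 19.3% of all genes). In homozygous against the same chow libraries 33 fell and 1 rose (median −0.23, beside 10.8% and 12.3%). These directions depended on the scaling: by total counts, 12 were higher and 0 lower in wildtype, 10 higher and 25 lower in heterozygous, and 11 higher and 7 lower in homozygous livers. Relative to the median of all genes, the nuclear median in wildtype livers was −0.15 under TMM and −0.16 under total counts. The wildtype count of 16 dropped to 7 without wildtype CDAHFD sample 3, and to 8, 9 and 10 without chow samples 1, 4 and 5. Within the 17-library series it was 0, with a nuclear median of −0.05 relative to all genes, and the heterozygous and homozygous counts were 28 and 16. The homozygous count of 34 was 17 without chow sample 5, 18 without chow sample 1, and 22 without chow sample 4 or homozygous sample 5.

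Complex I held most of the nuclear decreases, and also 37 of the 80 tested nuclear members. Of these 37, 11 fell in wildtype, 26 in heterozygous and 19 in homozygous CDAHFD livers against chow. Beside them, 12.2%, 17.9% and 10.8% of all genes were called lower. The 37, and the accessory members among them, include Ndufa4 and Ndufa4l2, counted here by symbol, and neither was called lower. Ndufb11, an accessory subunit of the membrane arm, had 160, 148, 142, 144 and 136 CPM in chow libraries. Its lowest, median and highest levels were 96.9, 115 and 124 CPM in wildtype, 94.3, 104 and 125 CPM in heterozygous and 98.6, 108 and 132 CPM in homozygous CDAHFD libraries. All 21 CDAHFD libraries lay below all 5 chow libraries. Ndufb11 fell in wildtype livers by 0.38 on the log2 scale (SE 0.09, adjusted p = 0.002). Ndufs8, a core subunit that carries iron-sulfur clusters towards the coenzyme Q site, had 108, 115, 94.2, 108 and 126 CPM in chow libraries. It ran from 64.9 to 91.2 CPM in wildtype CDAHFD libraries, all below chow, and fell by 0.44 (SE 0.11, adjusted p = 0.005).

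The largest nuclear complex I decreases in wildtype livers were in the accessory subunits Ndufb4 and Ndufv3, followed by the core subunit Ndufs8. Ndufb4 had 60.5, 46.2, 41.8, 57.6 and 64.1 CPM in chow and 26.6 to 46.2 CPM in wildtype CDAHFD libraries, 4 of 6 of them below every chow library. It fell by 0.52 on the log2 scale (SE 0.13, adjusted p = 0.003), and a near-identical gene, Ndufb4c, held 31.2% of the pair's reads. Ndufv3, which sits beside the NADH-binding subunits, fell by 0.49 (SE 0.13, adjusted p = 0.005), and Ndufa6 and Ndufb5 by 0.37 and 0.35. Ndufa6 did not pass without chow sample 5 (−0.33, adjusted p = 0.0607). Against chow, Ndufb4 and Ndufv3 fell by 0.76 and 0.70 in heterozygous and by 0.59 and 0.62 in homozygous livers. Ndufa3 fell by 0.64 and 0.56 in those comparisons. Other members did not pass. Ndufs1, the large iron-sulfur subunit, had 69.2, 68.1, 82.5, 57.4 and 57.0 CPM in chow and 49.3 to 88.3 CPM in wildtype CDAHFD libraries. Its log2 difference was 0.09, and that of the NADH-binding Ndufv1 was 0.08. Of the 7 nuclear core subunits 2 fell in wildtype, 4 in heterozygous and 3 in homozygous livers, and of the 30 accessory ones 9, 22 and 16, a split chosen after the values were seen. The shares of all genes called lower were 12.2%, 17.9% and 10.8%.

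No member of complex II passed, and none of the nuclear members of complex III passed in wildtype livers. There 12.2% of all genes were called lower and 14.8% higher, so few calls would fall in lists this short at those shares. Sdha, the flavoprotein that oxidises succinate, had 233, 220, 353, 155 and 136 CPM in chow and 162, 265 and 360 CPM as lowest, median and highest of the wildtype CDAHFD libraries. Heterozygous libraries ran from 195 to 457 CPM and homozygous ones from 170 to 391 CPM, overlapping chow. Its log2 difference from chow was 0.26 (adjusted p = 0.502) in wildtype and 0.60 (adjusted p = 0.071) in heterozygous livers. Sdhb, the iron-sulfur subunit, was at −0.23 in wildtype livers (adjusted p = 0.108). In complex III 0 of 9 nuclear members passed in wildtype livers (edgeR; 2 at an unadjusted p under 0.05), where Uqcr11, a small accessory subunit, came nearest at −0.33 (adjusted p = 0.057). Uqcr11 had 135, 120, 103, 124 and 141 CPM in chow, and all 8 homozygous libraries, at 68.4 to 101 CPM, lay below that. Against chow, Uqcrq, Uqcr11 and Uqcrb fell by 0.59, 0.53 and 0.45 in heterozygous and by 0.41, 0.52 and 0.32 in homozygous livers. The shares of all genes called lower were 17.9% and 10.8% there. The homozygous calls of Uqcrq and Uqcrb were lost in 8 and 5 of 13 fits without 1 library (adjusted p = 0.140 without chow sample 5, and 0.0723 without chow sample 1). Uqcrc1, a core protein of the complex, stayed within 169 to 240 CPM in all CDAHFD libraries and had 215, 195, 224, 171 and 182 CPM in chow.

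Among the 13 tested nuclear members of complex IV, 1 fell in wildtype, 7 in heterozygous and 6 in homozygous livers against chow, beside 12.2%, 17.9% and 10.8% of all genes called lower. The wildtype count was below that background share. The wildtype call was Cox7a1, the isoform typical of heart and skeletal muscle, which is scarce in liver. It had 3.31, 2.00, 2.40, 4.02 and 2.96 CPM in chow and 1.45, 1.63 and 2.46 CPM as lowest, median and highest of the wildtype CDAHFD libraries. It fell by 0.70 on the log2 scale (SE 0.21, adjusted p = 0.016), and without chow sample 4 the value was −0.56 (adjusted p = 0.070). The other tissue-restricted isoforms that were tested, Ndufa4l2 (counted with complex I by its symbol) and Cox6b2, were at −0.09 and 0.61 (adjusted p = 0.144). None of the 7 general isoforms passed in wildtype livers, and 3 fell in each knockout group against chow. One of these general isoforms, Cox4i1, had 525.7, 488, 471, 484 and 508 CPM in chow, 358 to 494 CPM in wildtype and 355 to 454 CPM in heterozygous libraries. All 7 heterozygous and 7 of 8 homozygous libraries lay below every chow library. Against chow, Cox7c and Cox7b fell by 0.60 and 0.52 in heterozygous livers, and Cox7c and Cox6b1 each by 0.42 in homozygous livers. Without chow sample 5 the last 2 were at −0.35 (adjusted p = 0.127) and −0.37 (adjusted p = 0.0528). Cox7a2l rose by 0.50 in heterozygous livers (adjusted p = 0.004), from 35.3 to 56.6 CPM in chow to 44.2 to 73.0 CPM.

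Of the 17 tested nuclear members of ATP synthase, 3 fell in wildtype, 8 in heterozygous and 5 in homozygous livers, beside the same 12.2%, 17.9% and 10.8% of all genes, and the wildtype count was near that share. The wildtype decreases were in Atp5h, a subunit of the peripheral stalk, at −0.37 (SE 0.12, adjusted p = 0.021), Atp5o, which joins the stalk to the catalytic head, at −0.27, and Atp5c1, the rotating central shaft, at −0.26. Atp5h had 270, 266, 210, 275 and 284 CPM in chow and 152, 196 and 248 CPM as lowest, median and highest of the wildtype CDAHFD libraries. Chow sample 3 was again the lowest of its group, and 4 of 6 wildtype libraries lay below it. Atp5s rose in wildtype livers by 0.28 (adjusted p = 0.049), from 8.44 to 10.5 CPM in chow to 9.41 to 12.4 CPM, with 5 of 6 libraries above every chow library. Without wildtype CDAHFD sample 3, Atp5h was at −0.30 (adjusted p = 0.0611), and without chow sample 2 Atp5o, Atp5c1 and Atp5s had adjusted p = 0.109, 0.119 and 0.105. The catalytic subunit Atp5b had 639, 595, 846, 424 and 388 CPM in chow and 459 to 939 CPM in wildtype CDAHFD libraries, with a log2 difference of 0.25 that did not pass. In Atp5b chow sample 3 was the highest of its group and sample 5 the lowest, the reverse of their order in mt-Co1. Against chow, Atp5e, Atp5h and Atp5j2 fell by 0.64, 0.61 and 0.52 in heterozygous and by 0.55, 0.41 and 0.38 in homozygous livers. Without chow sample 5 the homozygous value of Atp5j2 was −0.32 (adjusted p = 0.0716).

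**Figure D3:**
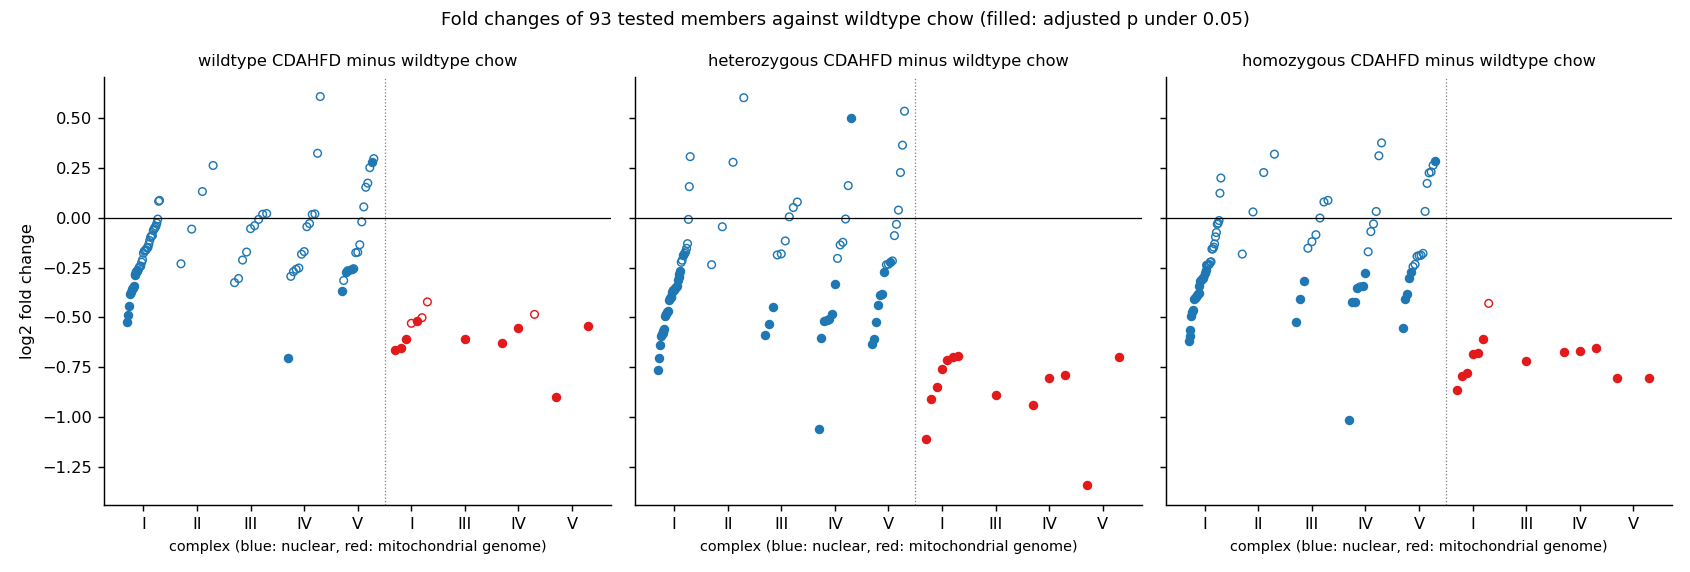
Log2 fold change of each of the 93 tested members against wildtype chow, by complex and genome, in wildtype (left), heterozygous (middle) and homozygous (right) CDAHFD livers; filled points passed at an adjusted p under 0.05. All 13 mitochondrial points lie below 0 in each panel, and nuclear points spread on both sides with medians of −0.17, −0.29 and −0.23.

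Calls differed in how firmly they held when single libraries were left out. In wildtype livers 6 of the 9 mitochondrial calls (mt-Atp6, mt-Atp8, mt-Co1, mt-Co3, mt-Nd4 and mt-Nd5) and 5 of the 16 nuclear ones (Ndufb4, Ndufv3, Ndufs8, Ndufb11 and Ndufb5) passed in all 11 fits that each left out 1 library of the groups compared. In heterozygous livers against chow 12 of 13 and 38 of 45 passed in all 12 such fits. In homozygous livers 10 of 12 and 14 of 34 passed in all 13. The mitochondrial members also varied more within groups. Their median SD of log2 CPM was 0.36 in chow, 0.31 in wildtype, 0.33 in heterozygous and 0.25 in homozygous CDAHFD libraries. For nuclear members it was 0.15, 0.21, 0.18 and 0.17, near the 0.19, 0.20, 0.20 and 0.18 of all genes of at least 10 CPM.

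Between the genotypes on CDAHFD no member passed. Homozygous against wildtype libraries, 0 of 93 members were called by edgeR, DESeq2 or limma voom, with 0.00585% of all genes called (Mtarc1 alone). At an unadjusted p under 0.05 there were 2 members, Ndufa1 and Ndufa7, of 1705 such genes. Ndufa7 had a log2 difference of −0.22 (SE 0.09, adjusted p = 0.421). Heterozygous against wildtype libraries, 0 of 93 were called, and 0% of all genes. Here 24 members, 22 nuclear and 2 mitochondrial, had an unadjusted p under 0.05, all below 0, of 1444 such genes. Examples are Atp5g2 at −0.39 (SE 0.14, adjusted p = 0.569), mt-Atp6 at −0.44 (SE 0.21, adjusted p = 0.569) and Ndufa5 at −0.34 (SE 0.13, adjusted p = 0.569). For Atp5g2, a near-identical copy held 90.5% of the pair's reads. With the counts of copies added, the heterozygous difference was −0.07 for Atp5g2 (edgeR adjusted p = 0.792) and −0.34 for mt-Atp6 (edgeR adjusted p = 0.570). Homozygous against heterozygous libraries, 0 of 93 were called beside 0.00585% of all genes, with 2 members at an unadjusted p under 0.05 of 1219 genes. DESeq2 and limma voom also called 0 members in these last comparisons.

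The estimates between genotypes leaned to one side without passing. In heterozygous against wildtype CDAHFD livers 65 of 80 nuclear (median −0.15) and 13 of 13 mitochondrial members (median −0.27) were below 0, beside 8779 of 17104 genes. In homozygous against wildtype livers they were 55 of 80 (median −0.05) and 12 of 13 (median −0.12), beside 8283 genes. Homozygous against heterozygous livers the medians were 0.07 and 0.13. These comparisons share libraries. Relative to the median of all genes, the nuclear median for heterozygous livers was −0.31 within the 17-library series and 0.02 within the 9-library series. For homozygous livers it was −0.17 and 0.11, so the sign differed between the series.

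Among nuclear members the differences between groups varied with the length of the coding sequence, and not in one direction in every comparison. Over the 80 tested members, Spearman's rho between coding length and log2 fold change was 0.23 in wildtype CDAHFD against chow, 0.63 in heterozygous and 0.69 in homozygous against wildtype CDAHFD livers. The last 2 comparisons share the wildtype CDAHFD libraries. It was 0.43 in each knockout group against chow, and −0.28 in homozygous against heterozygous livers. Over 14272 protein-coding genes the first 3 values were −0.08, 0.08 and 0.05, and that of homozygous against heterozygous livers was −0.04. These correlations are across genes, which share the same libraries and are not independent replicates, and are given as a description. The 40 shorter members (coding length 156 to 411 bases) had a median log2 fold change of −0.38 in heterozygous against chow livers, and the 40 longer ones (423 to 2181 bases) −0.19. In wildtype against chow livers the medians were −0.18 and −0.13, with 5 and 10 members fallen. There 12.2% of all genes were called lower, and the count of shorter members was near that share. Between genotypes the shorter members were at −0.21 and the longer at −0.05 in heterozygous, and at −0.12 and 0.01 in homozygous livers.

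**Figure D4:**
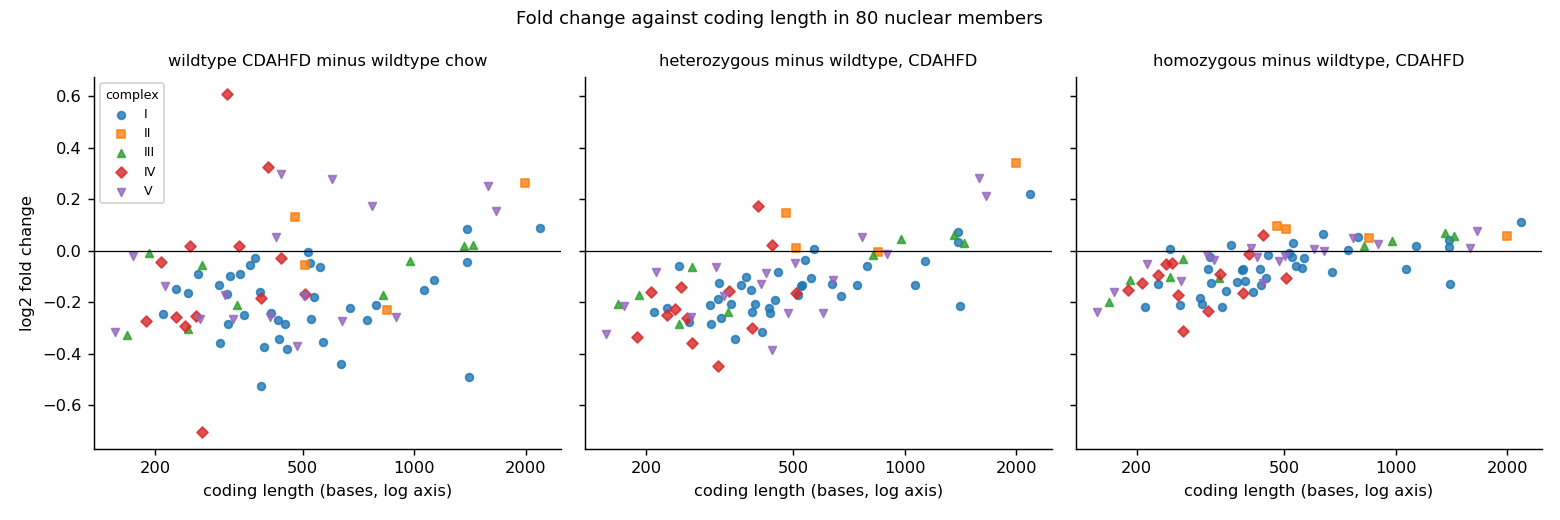
Log2 fold change of the 80 tested nuclear members against coding length in bases (log axis), one point per gene, marked by complex. The shortest members lie mostly below 0 in both genotype panels (rho 0.63 and 0.69), and the relation is weaker in the wildtype diet panel (rho 0.23).

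The same length difference varied between libraries of one group, beside the mitochondrial share. The mean log2 CPM of the shorter minus the longer members was −0.71 ± 0.18 (SD, n = 5) on chow, and on CDAHFD −0.78 ± 0.18 (n = 6) for wildtype, −0.93 ± 0.13 (n = 7) for heterozygous and −0.89 ± 0.13 (n = 8) for homozygous mice. In all 4 groups the library with the highest mitochondrial share also had the highest shorter-minus-longer value, and in 2 of 4 the lowest went with the lowest. In chow, sample 3 had a mitochondrial share of 7.96% and a value of −0.96, and sample 5 had 14.7% and −0.50. Malat1, a nuclear-retained RNA, stood at 1455 CPM in chow sample 3 and 2489 CPM in sample 5. The part of such differences between libraries in the results above was not tested.

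Within each complex, 1 mitochondrial subunit was set against 1 nuclear partner as a log2 ratio in every library, since a ratio inside a library does not depend on its scaling. The ratio of mt-Atp6 to Atp5b averaged 3.62 in chow, 2.50 in wildtype, 1.75 in heterozygous and 2.51 in homozygous CDAHFD libraries. The differences from chow were −1.12 (p = 0.0541), −1.86 (p = 0.00253) and −1.10 (p = 0.0396) by exact two-sided permutation tests, in the same order. After Benjamini-Hochberg adjustment over 24 such tests they were 0.144, 0.0606 and 0.136. These ratios leave out reads assigned to the near-identical copy of mt-Atp6. The copy held a mean of 27.2% of the mt-Atp6 reads in chow. In wildtype, heterozygous and homozygous CDAHFD libraries it held 35.9%, 39.9% and 31.6%. With copies added, mt-Atp6 itself differed from chow by −0.72, −1.06 and −0.76 in the edgeR fit, in the same order. The ratio of mt-Cytb to Uqcrc1 differed by −0.61 in wildtype (exact permutation p = 0.0714, adjusted 0.156), −0.93 in heterozygous (p = 0.00884, adjusted 0.0707) and −0.77 in homozygous livers (p = 0.00699, adjusted 0.0707). For mt-Co1 to Cox4i1 the differences were −0.38, −0.45 and −0.37 (adjusted exact permutation p = 0.160, 0.0963 and 0.0963), and for mt-Nd1 to Ndufs1 −0.48, −0.98 and −0.61 (adjusted 0.293, 0.0963 and 0.144). All 12 differences from chow were below 0, and none passed the adjusted threshold of 0.05. Without chow sample 3, all 4 heterozygous differences (−0.56 to −2.12) and the homozygous ones of mt-Nd1, mt-Cytb and mt-Co1 (−0.83, −0.96 and −0.48) passed. The comparisons share the chow libraries, and 5 against 6 libraries allow no exact p under 0.00216.

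**Figure D5:**
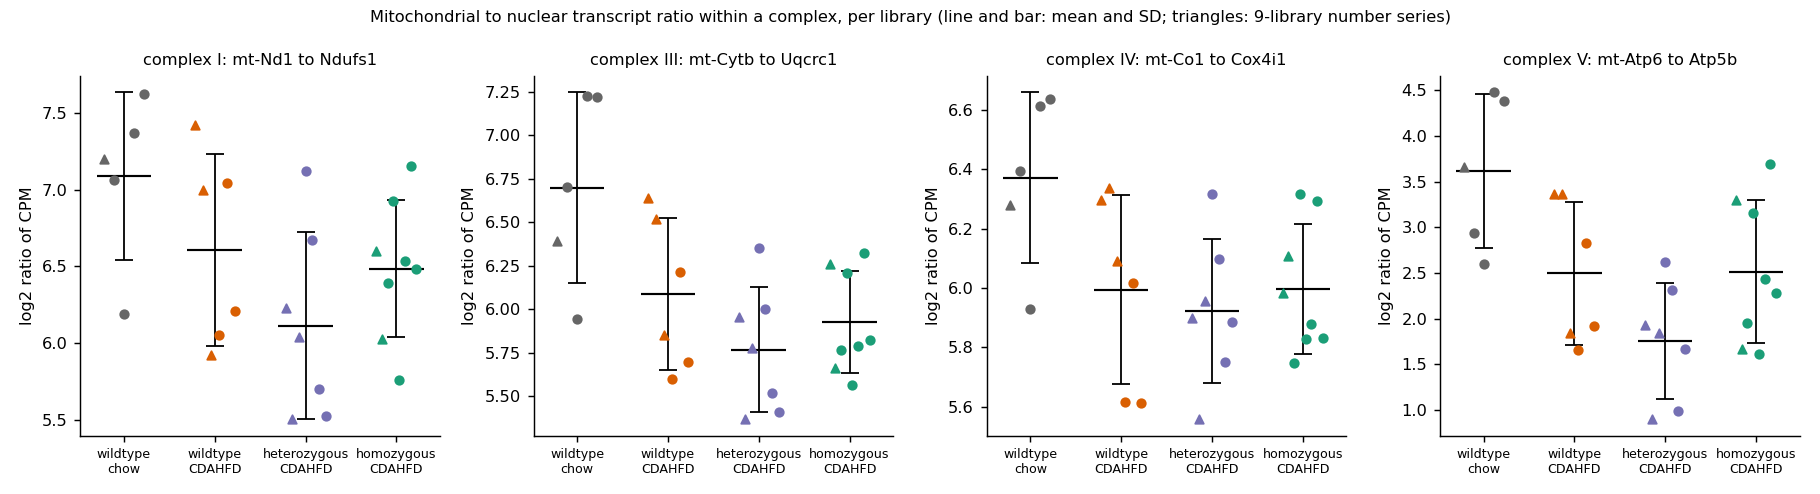
Log2 ratio of a mitochondrial to a nuclear subunit transcript in complexes I, III, IV and V, one point per library, with the group mean and SD. Chow means are the highest in each panel (for mt-Atp6 to Atp5b 3.62, against 1.75 in heterozygous libraries), with overlap of single libraries. Reads assigned to the near-identical copy of mt-Atp6 are left out. Axes do not start at 0.

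Promoters were read for 66 of the 80 tested nuclear members from RefSeq (GRCm38.p6; 250 bases before to 50 after the start). They were searched on both strands for the cores of 4 factors known from respiratory chain promoters. The NRF1 core GCGCANGCG was found in 30.3% of members, in 14.01% of 11149 promoters of tested protein-coding genes and in 7.03% of all 27025. The ETS core CCGGAAG, which GABP binds, was found in 24.2%, 18.4% and 9.93%. The YY1 motif AAGATGGCG was found in 10.6%, 3.22% and 1.64%, and the ERR motif TCAAGGTCA in 3.03%, 0.323% and 0.466%. Of the 39 members with a promoter that fell in heterozygous against chow livers, 25.6% held the NRF1 core, beside 37.0% of the other 27. For the ETS core the shares were 23.1% and 25.9%. A match is a description of the letters, not of binding, and the motifs do not overlap in the promoters shown. Shown are 3 members that fell in wildtype livers: Ndufb4 at chr16:37654319-37654618 with 3 NRF1 cores, Atp5h at chr11:115419870-115420169 with an NRF1 and an ETS core, and Ndufs8 at chr19:3912725-3913024 with an ETS core. All lie on the − strand, are printed 5′ to 3′ along the gene, and carry the motifs in capitals.
Ndufb4: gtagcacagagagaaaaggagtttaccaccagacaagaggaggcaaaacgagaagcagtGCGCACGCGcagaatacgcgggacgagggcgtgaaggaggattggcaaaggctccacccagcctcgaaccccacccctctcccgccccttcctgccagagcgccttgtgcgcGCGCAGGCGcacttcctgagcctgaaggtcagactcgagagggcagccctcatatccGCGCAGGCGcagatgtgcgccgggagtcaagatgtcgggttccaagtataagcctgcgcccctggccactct
Atp5h: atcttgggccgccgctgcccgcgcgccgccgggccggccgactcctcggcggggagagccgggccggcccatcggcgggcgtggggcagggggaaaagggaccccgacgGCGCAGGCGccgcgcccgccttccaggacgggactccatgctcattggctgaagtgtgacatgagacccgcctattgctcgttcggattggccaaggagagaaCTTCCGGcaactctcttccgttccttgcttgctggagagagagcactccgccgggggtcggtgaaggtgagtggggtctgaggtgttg
Ndufs8: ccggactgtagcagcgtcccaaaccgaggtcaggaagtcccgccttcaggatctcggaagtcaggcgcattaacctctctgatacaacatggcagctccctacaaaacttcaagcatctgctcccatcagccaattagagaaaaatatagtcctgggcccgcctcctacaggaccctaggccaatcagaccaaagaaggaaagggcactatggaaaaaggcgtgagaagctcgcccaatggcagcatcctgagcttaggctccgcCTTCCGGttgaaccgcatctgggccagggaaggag

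Lists of genes that build or serve the complexes had medians nearer 0 than the mitochondrial members in wildtype CDAHFD against chow livers. Of 78 mitochondrial ribosomal proteins 11 fell and 4 rose (median −0.07). With 12.2% of all genes called lower and 14.8% higher, the first count was near the background and the second below it. Among 24 genes of mitochondrial genome expression 4 fell and 2 rose. They included Polrmt, the mitochondrial RNA polymerase, which fell by 0.46 on the log2 scale (SE 0.10, adjusted p = 6.8e-04), and Hsd17b10, a part of mitochondrial RNase P, which fell by 0.48. Tfb1m, an rRNA methyltransferase, rose by 0.43. Of the assembly factors, 1 of 16 for complex I fell (Ndufaf3, −0.39), 1 of 4 for complex II (Sdhaf3, −0.33), 2 of 6 for complex III (Bcs1l, −0.32, and Uqcc3, −0.40) and 3 of 22 for complex IV (among them Surf1, −0.33, and Cox20, −0.54). Ttc19 of complex III rose by 0.21 and Coa3 of complex IV by 0.26. These counts stand beside the same 12.2% and 14.8% of all genes. None of the 4 for ATP synthase passed (edgeR; nearest Tmem242, −0.16, adjusted p = 0.167).

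Other lists of the pathway were mixed. Among 17 electron carrier genes 4 fell and 1 rose in wildtype livers, beside 12.2% of all genes called lower and 14.8% higher. Coq8a, a kinase-like protein of coenzyme Q synthesis, fell from 305 CPM ± 66.8 (SD, n = 5) to 124 CPM ± 52.3 (n = 6), −1.30 on the log2 scale, while Coq7, a hydroxylase of the same pathway, rose by 0.62. Dhodh, which feeds electrons from pyrimidine synthesis, fell by 0.36. Of 13 TCA cycle genes 1 rose in wildtype (Mdh2, 0.34), 5 in heterozygous and 3 in homozygous livers against chow, and 0 fell. The shares of all genes called higher were 14.8%, 19.3% and 12.3%, so the wildtype count was below its background. Of 21 protein import genes 3 rose in wildtype livers, among them Chchd4 by 0.50, and 1 fell (Gfer, −0.28). Neither import count was above its share of all genes. None of 16 regulators of mitochondrial biogenesis passed in wildtype livers (edgeR; 2 at an unadjusted p under 0.05), with Sirt1 nearest at −0.26 (adjusted p = 0.0798).

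Markers of some other cell types moved beside these results. The sum of 8 endothelial markers overlapped, at 183 to 233 CPM in chow and 195 to 240 CPM in wildtype CDAHFD libraries. Lists for bile duct, T and NK, B, muscle, adipocyte and exocrine pancreas cells are not described here. Of 10 hepatocyte markers 3 fell in wildtype CDAHFD against chow livers (Ttr −0.64, Alb −0.53, Apoa1 −0.45). This count and those of the marker lists that follow stand beside 12.2% of all genes called lower and 14.8% called higher. Their summed level was 97743 to 125120 CPM in chow, 63175 to 101370 CPM in wildtype, 62677 to 97455 CPM in heterozygous and 71657 to 107060 CPM in homozygous libraries. Of 10 macrophage markers 9 rose, such as Trem2 by 3.39 and Cd68 by 1.84. Their sum was 254 to 490 CPM in chow, 577 to 1044 CPM in wildtype, 551 to 807 CPM in heterozygous and 437 to 826 CPM in homozygous libraries. Of 10 stellate cell and fibroblast markers 4 rose, with sums of 295 to 358 CPM in chow, 488 to 911 CPM in wildtype, 429 to 630 CPM in heterozygous and 367 to 484 CPM in homozygous libraries. None of these hepatocyte, macrophage and stellate markers was at 0 in a whole group. Of 5 erythroid markers 4 fell (the globins Hba-a1, Hba-a2, Hbb-bs and Hbb-bt, by 1.00 to 1.29) and Alas2 rose by 0.48. The erythroid sum was 193 to 313 CPM in chow, 97.5 to 187 CPM in wildtype, 78.3 to 214 CPM in heterozygous and 101 to 187 CPM in homozygous libraries. All 3 tested neutrophil markers rose (S100a8, S100a9 and Csf3r, median 1.48), with sums of 4.19 to 6.08 CPM in chow, 6.54 to 22.4 CPM in wildtype, 5.78 to 19.6 CPM in heterozygous and 5.79 to 14.5 CPM in homozygous libraries, and Ly6g was at 0 in chow. Among 5 genes that mark RNA quality or handling, Hspa1a and Fos rose, by 2.51 and 2.00, and their list summed to 2791 to 4877 CPM in chow and 2292 to 4796 CPM in wildtype CDAHFD libraries. The part of cell composition and RNA quality in the subunit results was not tested.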

How the data were processed

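Liver total RNA of 26 samples was sequenced, with NEBNext Ultra II libraries per the labels' protocols. The deposited values are estimated counts per gene that the authors made with tools including Salmon 1.4.0 and cutadapt 3.5 on the mouse builds GRCm39 and mm39, per the submitters' processing notes. The sources used here do not say how transcripts were summed into genes. Of values above 0, 54.4% were whole, and 0 columns were unused. Groups came from the sample titles.

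Symbols came from GENCODE M21 (GRCm38, 92.5% of IDs matched). After rounding to whole numbers, edgeR 4.0.16 (R 4.3.3) fitted all 26 libraries together with robust quasi-likelihood F tests after TMM scaling and filterByExpr. It tested 17104 genes, with Benjamini-Hochberg adjustment over all of them and a biological coefficient of variation of 21.5%. CPM use TMM library sizes, and log2 CPM a prior count of 2. DESeq2 1.42.0 and limma 3.58.1 (voom) were alternatives, beside other scalings, filters, single series and leaving out each library. Ratios were tested by exact two-sided permutation in Python 3.11.15, and Spearman's rho was computed with SciPy 1.17.1. Near-identical copies were searched with BLAST 2.17.0 (at least 95% identity over 100 bases): 29 members had one, and 7 had over 5% of their reads on copies. The fit was tested on simulated data. Depth was 19.7 to 29.9 M counts per library.

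Members, lists and tests were chosen with earlier results of these data known. Named were all mitochondrial members, the ratio pairs, the isoforms, per complex and comparison up to 3 called nuclear members in each direction with at least 1 CPM (or the 1 with the lowest p), and up to 3 called genes per other list. Further members were named after their values were seen (Ndufb11, Ndufa6, Ndufb5, Ndufv1, Ndufa1). Replicate numbers are shared between groups, and the correlations of the deviations of same-numbered samples ran from −0.371 to 0.316. Their median was highest for wildtype against heterozygous CDAHFD (0.186, beside −0.013 for differently numbered samples). It was lowest for wildtype against homozygous CDAHFD (−0.086, beside 0.032). In every other pair of groups the same-numbered median was the higher one. These few correlations cannot decide whether the numbers pair samples.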

Additional observations from a re-analysis of the deposited data

Results flagged for a closer look

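One measure stood out among 96 sets of group and measure examined. The share of counts on the 86 nuclear members was 1.125% in chow sample 1, while the other 4 chow libraries lay between 1.00% and 1.04%. The gap to the nearest library was large for the range of the group. Chance flags about 1 in 20 groups. Chow sample 1 is also the only chow library of the 9-library series.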

How the results depend on the processing

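Members called were recounted under each alternative. In wildtype CDAHFD against chow livers the 16 nuclear calls were 6 with no count filter, 10 with a replicate block and 0 within the 17-library series, and the 9 mitochondrial calls were 1 with total count scaling and 4 within that series. In homozygous against chow livers the 34 nuclear calls were 18 with total count scaling, 16 with no count filter, 17 with a replicate block and 16 within the 17-library series, and in heterozygous livers the 45 were 28 within it. Leaving out single libraries gave 7 to 19 nuclear and 6 to 13 mitochondrial calls in wildtype, 17 to 39 and 10 to 13 in homozygous, and 39 to 51 and 12 to 13 in heterozygous livers. DESeq2 called 17 nuclear and 12 mitochondrial members in wildtype livers, and limma voom 15 and 9. The cause of these shifts was not tested, and the single series holds fewer libraries. Between genotypes on CDAHFD every alternative called 0 members. The replicate numbers were not shown to pair samples.

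The nuclear minus mitochondrial difference in wildtype against chow livers was 0.093 within the 9-library series, and the heterozygous one against wildtype CDAHFD was 0.489 there and −0.138 within the 17-library series. Homozygous against wildtype CDAHFD, the ratio of mt-Nd1 to Ndufs1 went from −0.12 to 0.0725 with the mean of all nuclear subunits as denominator, and that of mt-Atp6 to Atp5b from 0.02 to −0.0715 with copies added. Leaving out single libraries, the ratio differences of homozygous against wildtype CDAHFD livers ranged from −0.260 to 0.0407 for mt-Nd1 to Ndufs1, −0.0735 to 0.0718 for mt-Co1 to Cox4i1 and −0.153 to 0.189 for mt-Atp6 to Atp5b. Against chow, homozygous differences ranged from −0.833 to −0.473 for mt-Nd1 to Ndufs1, −0.961 to −0.641 for mt-Cytb to Uqcrc1 and −0.484 to −0.307 for mt-Co1 to Cox4i1. Heterozygous ones ranged from −1.204 to −0.845, −1.118 to −0.798 and −0.559 to −0.382 for the same pairs, and from −2.116 to −1.647 for mt-Atp6 to Atp5b. Without chow sample 3, 7 of these differences from chow passed the adjusted threshold, and none did with all libraries.

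Depth was 19.7 M counts or more, and the spread of mitochondrial transcripts within groups (median SD of log2 CPM 0.25 to 0.36) limits their precision. Cox7a1 and other scarce members rest on a few CPM. Reads assigned between members and their copies, and the unknown use of strand, limit values for single mitochondrial genes. Knockout mice were not measured on chow here, so diet was compared within wildtype mice only.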
